A study of Mus musculus with 12 samples.

Results

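The antigen presentation genes of the mouse major histocompatibility complex (MHC) were followed in whole spinal cord. The set is a list of 10 genes chosen by name, H2-K1, H2-D1, B2m, Tap1, Tap2, Cd74, H2-Aa, H2-Ab1, H2-Eb1 and Ciita, out of 38924 genes in each deposited table. All 10 were found by symbol and all 10 passed the filter on low counts, which kept 17189 genes in all. RNA was sequenced from 6 heterozygous mice, in which a copy of Gars carries the ETAQ deletion (ETAQ mice), and 6 wild-type controls (WT mice), all aged 8 weeks and of mixed B6J;FVB background, with 3 females and 3 males of each genotype. Gars encodes glycyl-tRNA synthetase, and every ETAQ mouse carries the deletion in all of its cells together with a normal copy. Counts per gene cannot show the deletion itself, so the genotype rests on the labels.

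Mice are named by the number in their title, 1 to 12, and are also compared as mice 1 to 6 against mice 7 to 12, with 3 ETAQ and 3 WT mice in each of these number groups. No label calls this division a batch. The ETAQ mice are numbers 1, 5, 6, 8, 9 and 11 and the WT mice are numbers 2, 3, 4, 7, 10 and 12. WT mice 2, 3 and 4 are male and WT mice 7, 10 and 12 are female, so sex and mouse number can be told apart only through the ETAQ mice, among which mouse 1 is a female of the first 6 and mouse 11 a male of the last 6. Nothing in the labels gives the MHC haplotype of a single mouse, although B6 and FVB mice carry different ones. The part of haplotype in the values of single mice was not tested.

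MHC class I molecules, found on nearly all nucleated cells, are made of a polymorphic heavy chain (H2-K1 and H2-D1 here) and the invariant light chain beta-2 microglobulin (B2m), and show peptides from inside the cell to CD8 T cells. The peptides are pumped into the endoplasmic reticulum by the transporter made of Tap1 and Tap2. MHC class II molecules pair an alpha and a beta chain (H2-Aa with H2-Ab1; H2-Eb1 is the beta chain of the second kind), are escorted by the invariant chain Cd74, and show peptides from outside the cell to CD4 T cells. Their genes need the coactivator Ciita, and are used by B cells, dendritic cells, macrophages and activated microglia, while resting cord tissue holds little of them.

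Promoter windows of 300 bases, from 250 bases before the gene start to 50 bases after it, came from the RefSeq table (GRCm38.p6). They were examined for 6 of the 10 genes, H2-K1, H2-D1, B2m, Tap1, H2-Aa and H2-Eb1. Those of 4 genes are given, which belong to a class I heavy chain, its light chain and the class II chains H2-Aa and H2-Eb1, because these members differ in how far they moved with mouse number. Each is written 5′ to 3′ on the strand of its gene, with motif matches in capitals. The motifs searched on both strands were CCAAT (bound by the factor NF-Y, and seen as ATTGG where the match is on the other strand), the interferon-stimulated response element (bound by interferon-regulated factors), TTCNNNGAA (bound by STAT factors) and TGACGT (bound by CREB).
H2-K1, chr17:34000298-34000597, minus strand: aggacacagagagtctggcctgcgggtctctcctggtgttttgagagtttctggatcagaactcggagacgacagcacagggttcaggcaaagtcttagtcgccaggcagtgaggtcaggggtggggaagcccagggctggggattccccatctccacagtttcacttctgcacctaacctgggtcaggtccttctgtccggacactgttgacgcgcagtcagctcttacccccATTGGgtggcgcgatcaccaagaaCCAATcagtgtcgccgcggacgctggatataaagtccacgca
B2m, chr2:122147437-122147736, plus strand: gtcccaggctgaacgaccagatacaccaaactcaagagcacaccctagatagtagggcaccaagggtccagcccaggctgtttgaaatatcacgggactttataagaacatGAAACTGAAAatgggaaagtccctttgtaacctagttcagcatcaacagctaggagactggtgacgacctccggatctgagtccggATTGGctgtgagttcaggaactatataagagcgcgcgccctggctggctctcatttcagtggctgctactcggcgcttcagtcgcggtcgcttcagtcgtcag
H2-Aa, chr17:34287774-34288073, minus strand: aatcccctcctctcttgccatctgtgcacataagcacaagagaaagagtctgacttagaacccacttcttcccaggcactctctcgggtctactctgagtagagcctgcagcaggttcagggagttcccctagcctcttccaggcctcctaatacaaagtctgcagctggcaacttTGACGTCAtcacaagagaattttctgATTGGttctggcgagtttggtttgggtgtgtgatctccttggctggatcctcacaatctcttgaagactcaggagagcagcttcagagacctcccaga
H2-Eb1, chr17:34305617-34305916, plus strand: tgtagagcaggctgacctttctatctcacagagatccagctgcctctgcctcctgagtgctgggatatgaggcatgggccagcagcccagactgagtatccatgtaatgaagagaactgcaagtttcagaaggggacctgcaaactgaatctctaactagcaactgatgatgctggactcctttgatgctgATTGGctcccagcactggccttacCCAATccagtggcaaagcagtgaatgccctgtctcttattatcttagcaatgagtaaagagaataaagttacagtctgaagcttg
A CCAAT match was present in all 6 windows, against 37.4% of the 32851 windows of the table. The interferon-stimulated response element was searched as a single strict pattern. This pattern occurred in the window of B2m alone of the 6, starting 139 bases before the gene start, against 3.44% of all windows. Looser forms of the element were not searched, so its absence from the other windows was not tested. TGACGT occurred in that of H2-Aa alone, as a pair of overlapping matches on opposite strands 74 and 72 bases before the start, against 7.51% of all windows. TTCNNNGAA was in none of the 6, against 8.30% of all windows. Such matches describe the letters of these windows and no binding was measured.

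In the reference (GENCODE M21, GRCm38), most of the set lies in the MHC on chromosome 17. H2-K1 spans chr17:33996017-34000347 on the minus strand, Tap1 chr17:34187553-34197225, Tap2 chr17:34203527-34216321, H2-Ab1 chr17:34257689-34269419, H2-Aa chr17:34282744-34287823 on the minus strand, H2-Eb1 chr17:34305867-34316674 and H2-D1 chr17:35262730-35267499. B2m lies at chr2:122147686-122153083, Ciita at chr16:10480059-10528418 and Cd74 at chr18:60803848-60812652. Of the 75-base stretches of their transcripts, 3.10% in H2-K1 and 5.40% in H2-D1 also occur in other genes, and none do in the other 8 members, so the division of reads between class I genes and their near copies is less certain. Exons on the opposite strand cover 18.5% of the exon bases of Tap2, 3.87% of those of Tap1 and 3.45% of those of Ciita, and whether counting used strand is not given in the sources used here.

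Libraries held between 23595929 and 41452662 expected counts. Neuron markers summed to 2353 to 2829 TPM and glia markers to 23036 to 30880 TPM across the 12 libraries, so the defining markers of cord tissue were present in each. Markers of marrow neutrophils, red cells, skeletal muscle and fibroblasts stood far higher in mice 1 to 6 than in mice 7 to 12, as detailed beside the class II results. Levels between genes are compared in TPM, a share of all transcripts that takes gene length into account. Tests used counts, and normalised CPM stands for counts scaled by library total and a factor per library, without length.

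The class I chains stood above all class II genes in every cord, as the plot of TPM by mouse shows. The light chain B2m was the highest of the 10 at 188 ± 16.5 TPM (SD, n = 12), followed by H2-D1 at 108 ± 11.99 TPM and H2-K1 at 31.0 ± 4.50 TPM. The order of these 3 held in all 12 mice, with no overlap of their ranges. Below them came Cd74 at 8.05 ± 5.97 TPM, Tap2 at 7.96 ± 0.843 TPM, H2-Aa at 3.82 ± 3.03 TPM, H2-Ab1 at 3.32 ± 1.72 TPM and Tap1 at 2.85 ± 0.659 TPM. These 5 neighbours overlapped in range, and Cd74 exceeded Tap2 in 6 of 12 mice. H2-Eb1 averaged 1.82 ± 0.940 TPM and overlapped in range with Tap1, while Ciita was the lowest in all 12 mice at 0.183 ± 0.0684 TPM.

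**Figure D1:**
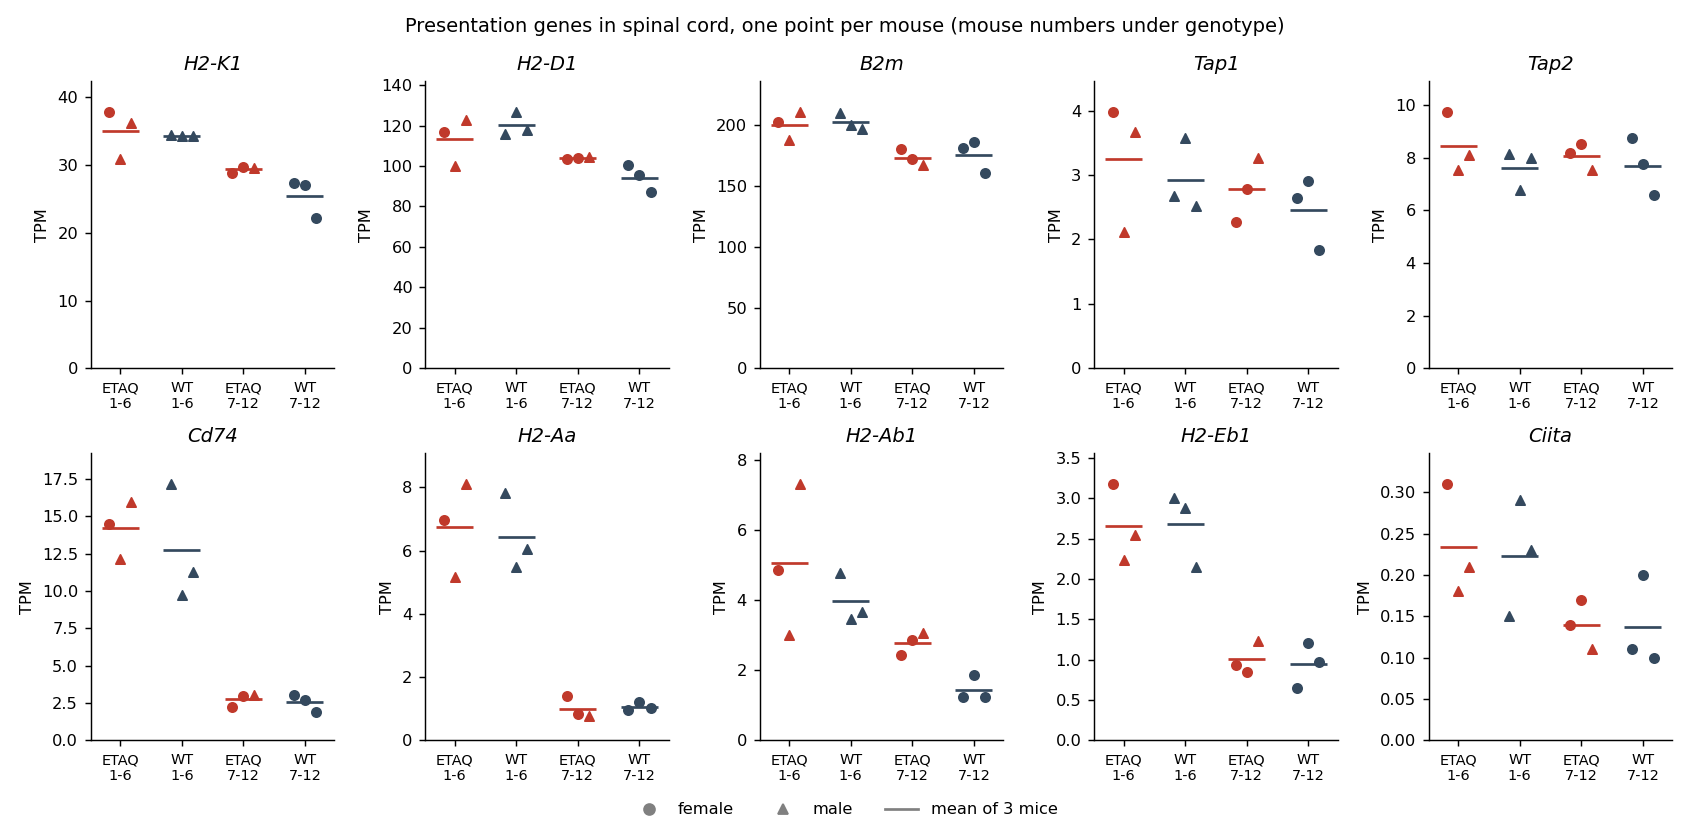
TPM of each presentation gene (vertical axes, each from 0) in ETAQ and WT mice of numbers 1 to 6 and 7 to 12, with 1 point per mouse and a line at the mean of 3 mice. Cd74 lies between 9.70 and 17.2 TPM in mice 1 to 6 and between 1.92 and 3.01 TPM in mice 7 to 12, with ETAQ and WT points intermixed, while Tap1 and Tap2 points overlap across all 4 columns.

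The ETAQ comparison asks whether heterozygous cords carry more or less presentation machinery than wild-type cords. None of the 10 genes passed the test, in either direction. In the quasi-likelihood test of edgeR, adjusted for sex, 330 of 17189 genes (1.92%) were called at an adjusted p under 0.05 and 0 of the 10 members were, and 0 with DESeq2 or limma-voom. At an unadjusted p under 0.05 edgeR held 0 of the 10, against 10.9% of all genes. That fit had no term for mouse number, and with one added H2-Ab1 reached an unadjusted p of 0.0157 (edgeR adjusted p = 0.213). The ETAQ and WT ranges overlapped for all 10 in normalised CPM, where 2.01% of all genes had separate ranges. The members' median log2 fold change was 0.10, against 0.00428 over all genes.

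The class I heavy chain H2-K1, which presents peptides to CD8 T cells, had 28.8, 30.2 and 37.8 TPM in ETAQ mice (lowest, median, highest) and 22.2, 30.7 and 34.4 TPM in WT mice. Its log2 fold change, ETAQ over WT, was 0.09 ± 0.11 (SE; edgeR adjusted p = 0.852). H2-D1, the other classical heavy chain, had 99.9, 104 and 123 TPM in ETAQ mice against 87.1, 108 and 127 TPM in WT mice, a log2 fold change of -0.04 ± 0.07 (SE; edgeR adjusted p = 0.913). The highest and lowest H2-D1 values both belonged to WT mice. B2m, the shared light chain, had 167, 184 and 211 TPM in ETAQ mice against 161, 192 and 210.1 TPM in WT mice, with a log2 fold change of -0.05 ± 0.08 (SE; edgeR adjusted p = 0.888). The class I trio thus differed between genotypes by less than its spread between mice.

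The peptide transporter genes did not pass either, and their ranges overlapped between the genotypes. Tap1 had 2.11, 3.03 and 3.98 TPM in ETAQ mice against 1.83, 2.66 and 3.58 TPM in WT mice. Its partner Tap2 had 7.54, 8.13 and 9.74 TPM in ETAQ mice against 6.58, 7.87 and 8.73 TPM in WT mice, with WT mice 3 and 12 below every ETAQ value and ETAQ mouse 1 above every WT value. The log2 fold changes were 0.07 ± 0.13 for Tap1 (SE; edgeR adjusted p = 0.906) and 0.14 ± 0.07 for Tap2 (SE; edgeR adjusted p = 0.528).

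Among the class II genes, the beta chain H2-Ab1 had the largest log2 fold change of the 10, and it missed the threshold. It stood at 4.86, 3 and 7.32 TPM in ETAQ mice 1, 5 and 6 against 4.79, 3.47 and 3.66 TPM in WT mice 2, 3 and 4. It stood at 2.44, 2.88 and 3.06 TPM in ETAQ mice 8, 9 and 11 against 1.25, 1.86 and 1.23 TPM in WT mice 7, 10 and 12. ETAQ mouse 6 held the highest value of all and ETAQ mouse 5 the lowest of mice 1 to 6, while in mice 7 to 12 every ETAQ value lay above every WT value. The log2 fold change over all 12 mice was 0.60 ± 0.30 (SE; edgeR adjusted p = 0.499). With mouse number as a further covariate it was 0.56 ± 0.20 (SE; edgeR unadjusted p = 0.0157, adjusted p = 0.213).

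Within mice 1 to 6 the H2-Ab1 log2 fold change was 0.36 ± 0.29 (SE; edgeR adjusted p = 0.797). Among mice 7 to 12 the value was 0.82 ± 0.33 (SE; unadjusted p = 0.0268, edgeR adjusted p = 0.425). The difference between these effects was -0.46 ± 0.46 on the log2 scale (SE; edgeR adjusted p = 0.995). Summed microglia markers moved the same way in the later mice. They stood at 255 to 273 TPM in ETAQ mice 8, 9 and 11 against 228 to 248 TPM in WT mice 7, 10 and 12. In mice 1 to 6 these sums overlapped, at 249 to 277 TPM in ETAQ mice against 218 to 253 TPM in WT mice. By genotype, 0 of the 10 microglia markers were called in edgeR, against 1.92% of all genes. At an unadjusted p under 0.05 there was 1 of them, against 10.9% of all genes. The part of microglia in the H2-Ab1 values was not tested. In whole tissue, more cells of a type and more RNA per cell cannot be told apart. In normalised CPM, H2-K1 was the other member with separate groups within mice 7 to 12, at 22.9 to 23.1 in ETAQ mice against 17.97 to 22.01 in WT mice. Its log2 fold change there was 0.17 ± 0.09 (SE; edgeR adjusted p = 0.574). The H2-D1 groups were separate there in TPM only, at 103 to 104 TPM in ETAQ mice against 87.1 to 100 TPM in WT mice. Separate groups of 3 against 3 were common in normalised CPM, in 16.3% of all genes within mice 7 to 12 and 15.5% within mice 1 to 6. Of the 10 members 2 and 0 were separate on that scale. Within mice 7 to 12, 7.54% of all genes were separate and higher in ETAQ mice. The calls of edgeR made up 0.803% of all genes within mice 1 to 6 and 0.937% within mice 7 to 12, with 0 members in either. At an unadjusted p under 0.05 they held 0 members in mice 1 to 6, against 8.89% of all genes, and 1 (H2-Ab1) in mice 7 to 12, against 9.54%.

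The other class II genes had wide ranges in both genotypes, and those of Cd74, H2-Aa and H2-Eb1 had a gap between mice 1 to 6 and mice 7 to 12. Cd74, the invariant chain, had 2.27, 7.57 and 15.9 TPM in ETAQ mice against 1.92, 6.36 and 17.2 TPM in WT mice (log2 fold change 0.40 ± 0.61 SE; edgeR adjusted p = 0.893). H2-Aa, the alpha chain that pairs with H2-Ab1, had 0.780, 3.29 and 8.11 TPM in ETAQ mice against 0.950, 3.35 and 7.82 TPM in WT mice (log2 fold change 0.37 ± 0.70 SE; edgeR adjusted p = 0.919). The direction of both depended on the setting, with log2 fold changes of -0.24 for Cd74 and -0.54 for H2-Aa in limma-voom. With mouse number as a further covariate, the edgeR values were 0.068 ± 0.17 (SE) for Cd74 and -0.071 for H2-Aa. H2-Eb1 had a log2 fold change of 0.12 ± 0.37 (SE; edgeR adjusted p = 0.954) and the coactivator Ciita one of 0.05 ± 0.31 (SE; edgeR adjusted p = 0.980), both of which turned sign with that covariate. The interaction of genotype with mouse number was called for 0 of 17189 genes (0.0%) in edgeR, 683 of them (3.97%) at an unadjusted p under 0.05, and for 3 with DESeq2. It was called for 0 of the 10 members with either tool, 0 of them at an unadjusted p under 0.05 in edgeR.

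**Figure D2:**
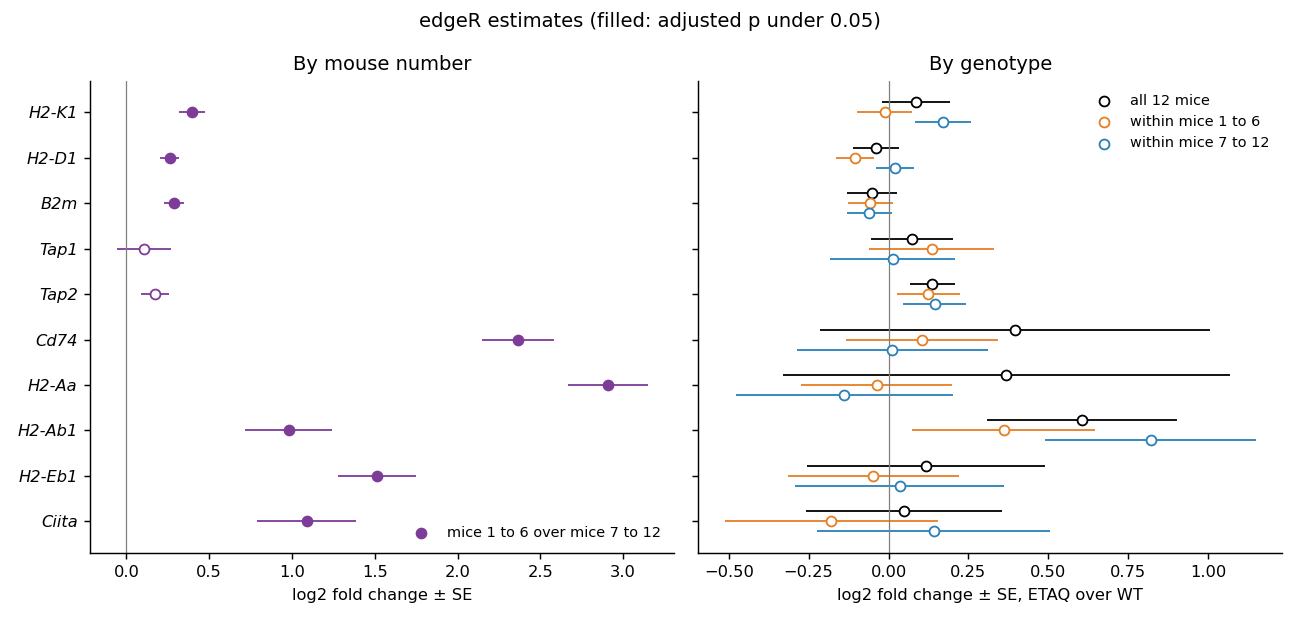
edgeR log2 fold changes with bars of ± 1 SE (horizontal axes) for the 10 genes, at left for mice 1 to 6 over mice 7 to 12 and at right for ETAQ over WT in all mice and within each number group, with filled points for an adjusted p under 0.05. At left 8 of 10 points are filled, with H2-Aa farthest out at 2.91, and at right no point is filled.

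Mouse number, by contrast, divided the class II genes and, by less, the class I complex. In mice 1 to 6 the invariant chain and the 3 class II chains together reached 21.5 to 33.9 TPM, against 5.14 to 8.08 TPM in mice 7 to 12. With sex and genotype as covariates, edgeR's quasi-likelihood test called 1356 of 17189 genes (7.89%), 4.93% higher and 2.96% lower in mice 1 to 6. Of the 10 members, 8 were called and all 8 were higher in mice 1 to 6, with Tap1 and Tap2 not called. The members' median log2 fold change was 0.69, against 0.00448 over all genes. In normalised CPM 7 of the 10 had separate ranges, all higher in mice 1 to 6, against 8.85% of all genes separate and 5.0% separate and higher. Sex in the same fit was called for 0.0524% of genes and for 0 of the 10 members, with 0 of them at an unadjusted p under 0.05, against 3.55% of all genes. The call count depends on the mice that tell sex from mouse number, and it was 2 (Cd74 and H2-Aa) without mouse 1 and 3 (these and H2-Eb1) without mouse 11.

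H2-Aa showed the largest difference. It stood at 6.98, 5.17 and 8.11 TPM in ETAQ mice 1, 5 and 6 and at 7.82, 5.48 and 6.04 TPM in WT mice 2, 3 and 4. In the later mice it stood at 1.40, 0.830 and 0.780 TPM in ETAQ mice 8, 9 and 11 and at 0.950, 1.22 and 1.02 TPM in WT mice 7, 10 and 12. No mouse of either number group reached the range of the other. The log2 fold change, mice 1 to 6 over mice 7 to 12, was 2.91 ± 0.24 (SE), or 7.51-fold (edgeR adjusted p = 1.99e-06).

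Cd74 followed the same division. It stood at 14.5, 12.1 and 15.9 TPM in ETAQ mice 1, 5 and 6 and at 17.2, 9.70 and 11.3 TPM in WT mice 2, 3 and 4, and at 2.27, 2.96 and 3.01 TPM in ETAQ mice 8, 9 and 11 and 3.01, 2.72 and 1.92 TPM in WT mice 7, 10 and 12. The ranges were again separate, with both genotypes on the same side of the gap. The log2 fold change was 2.36 ± 0.22 (SE), or 5.14-fold (edgeR adjusted p = 2.22e-05). Both Cd74 and H2-Aa were called under every alternative tried, including each omission of 1 mouse.

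The remaining class II chains differed by less. H2-Eb1 had 2.15, 2.71 and 3.18 TPM in mice 1 to 6 (lowest, median, highest) against 0.650, 0.950 and 1.23 TPM in mice 7 to 12, a log2 fold change of 1.51 ± 0.24 (SE; edgeR adjusted p = 0.00104). The ranges were separate, and the call was lost without mouse 1, with a log2 fold change of 1.07. H2-Ab1, given by mouse above, ranged from 3 to 7.32 TPM in mice 1 to 6 against 1.23 to 3.06 TPM in mice 7 to 12, a log2 fold change of 0.98 ± 0.26 (SE; edgeR adjusted p = 0.0352). In TPM the highest of the later mice, ETAQ mouse 11, reached the lowest of the first 6, ETAQ mouse 5, while in normalised CPM the ranges were separate. Ciita, the coactivator on which these genes depend, was read from 13 to 31 expected counts per library in mice 1 to 6 against 9 to 19 in mice 7 to 12. At 0.15 to 0.31 TPM against 0.1 to 0.2 TPM in mice 7 to 12 its ranges overlapped, with a log2 fold change of 1.09 ± 0.30 (SE; edgeR adjusted p = 0.0352). The H2-Ab1 and Ciita calls are close to the threshold and were lost in the ETAQ mice alone, with log2 fold changes of 0.84 for H2-Ab1 (edgeR adjusted p = 0.140) and 0.98 for Ciita (edgeR adjusted p = 0.104). The H2-Ab1 call was also lost in 4 of 12 omissions of 1 mouse and with limma-voom (adjusted p = 0.0648), and the Ciita call in 6 of 12 and with DESeq2 (adjusted p = 0.0895).

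The class I complex rose by small amounts in mice 1 to 6. H2-K1 had 30.8, 34.3 and 37.8 TPM in mice 1 to 6 against 22.2, 28.02 and 29.7 TPM in mice 7 to 12, a log2 fold change of 0.40 ± 0.08 (SE; edgeR adjusted p = 0.00585). B2m had 188, 201 and 211 TPM against 161, 176 and 186 TPM in mice 7 to 12, a log2 fold change of 0.29 ± 0.06 (SE; edgeR adjusted p = 0.00923). H2-D1 had 99.9, 117 and 127 TPM against 87.1, 102 and 104 TPM in mice 7 to 12, a log2 fold change of 0.26 ± 0.06 (SE; edgeR adjusted p = 0.00976). The ranges of H2-K1 and B2m were separate on both scales, and those of H2-D1 in normalised CPM only, since ETAQ mouse 5 fell among the later mice in TPM. In limma on log2(TPM + 1) these 3 differences kept their direction and missed the threshold, at 0.34 for H2-K1, 0.23 for B2m and 0.20 for H2-D1 on that log2 scale (limma adjusted p = 0.0628 for H2-K1, 0.0521 for B2m and 0.212 for H2-D1).

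The transporter did not pass. Tap1 had 2.11, 3.13 and 3.98 TPM in mice 1 to 6 against 1.83, 2.71 and 3.27 TPM in mice 7 to 12 (log2 fold change 0.11 ± 0.16 SE; edgeR adjusted p = 0.766). Tap2 had 6.78, 8.04 and 9.74 TPM in mice 1 to 6 against 6.58, 7.97 and 8.73 TPM in mice 7 to 12 (log2 fold change 0.17 ± 0.08 SE; edgeR adjusted p = 0.242). Both pairs of ranges overlap over most of their length.

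The class II chains did not keep a single proportion across the number groups, as the plot of ratios by mouse shows. H2-Aa stood at 1.11 to 1.72 times the TPM of its partner H2-Ab1 in mice 1 to 6, against 0.255 to 0.829 times in mice 7 to 12. On the log2 scale of normalised CPM this ratio was 1.62 higher in mice 1 to 6 (exact two-sided permutation p = 0.00216, the smallest that 6 against 6 can give, adjusted over 7 ratios p = 0.00758), with separate ranges. The H2-Aa to H2-Eb1 ratio was 1.24 higher, also with separate ranges and the same exact permutation p. The Cd74 to H2-Ab1 ratio was 1.21 higher (exact permutation p = 0.00433, adjusted 0.0101) and the Cd74 to H2-Eb1 ratio 0.84 higher (exact permutation p = 0.0108, adjusted 0.0189). The H2-Aa to Cd74 ratio differed by 0.40 (exact permutation p = 0.134, adjusted 0.157) and the H2-Eb1 to H2-Ab1 ratio by 0.37 (exact permutation p = 0.208, adjusted 0.208). H2-Aa and Cd74 thus changed by more than H2-Ab1 and H2-Eb1. The permutations held no term for sex or genotype, so unlike the fits of single genes they do not tell sex from mouse number. The ratios were chosen after the values were seen.

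Within mice 7 to 12, H2-Ab1 was high relative to the other class II genes in the ETAQ mice. H2-Aa stood at 0.574, 0.288 and 0.255 times H2-Ab1 (TPM) in ETAQ mice 8, 9 and 11 against 0.760, 0.656 and 0.829 times in WT mice 7, 10 and 12. These did not overlap, nor did the Cd74 to H2-Ab1 and H2-Eb1 to H2-Ab1 ratios there, and each had an exact permutation p of 0.1, the smallest that 3 against 3 can give. All of these ratios share H2-Ab1, so they are not independent of each other. In mice 7 to 12, H2-Ab1 rests on 20 to 49 expected counts per library, H2-Aa on 10 to 21 and H2-Eb1 on 10 to 22. Over all 12 mice the H2-Aa to H2-Ab1 ratio differed between ETAQ and WT mice by -0.69 on the log2 scale (exact permutation p = 0.262, adjusted 0.470). The H2-Eb1 to H2-Ab1 ratio differed by -0.57 (exact permutation p = 0.0476, adjusted 0.174). Among class I chains, H2-K1 stood at 0.270 to 0.324 times H2-D1 in mice 1 to 6 against 0.254 to 0.285 times in mice 7 to 12, a log2 difference of 0.14 (exact permutation p = 0.0195, adjusted 0.0273). By genotype the same ratio was 0.279 to 0.324 in ETAQ mice against 0.254 to 0.297 in WT mice, a log2 difference of 0.13 (exact permutation p = 0.0498, adjusted 0.174). The MHC haplotypes that these single mice inherited from the mixed B6J;FVB background are not in the labels, and their part in the ratios was not tested.

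**Figure D3:**
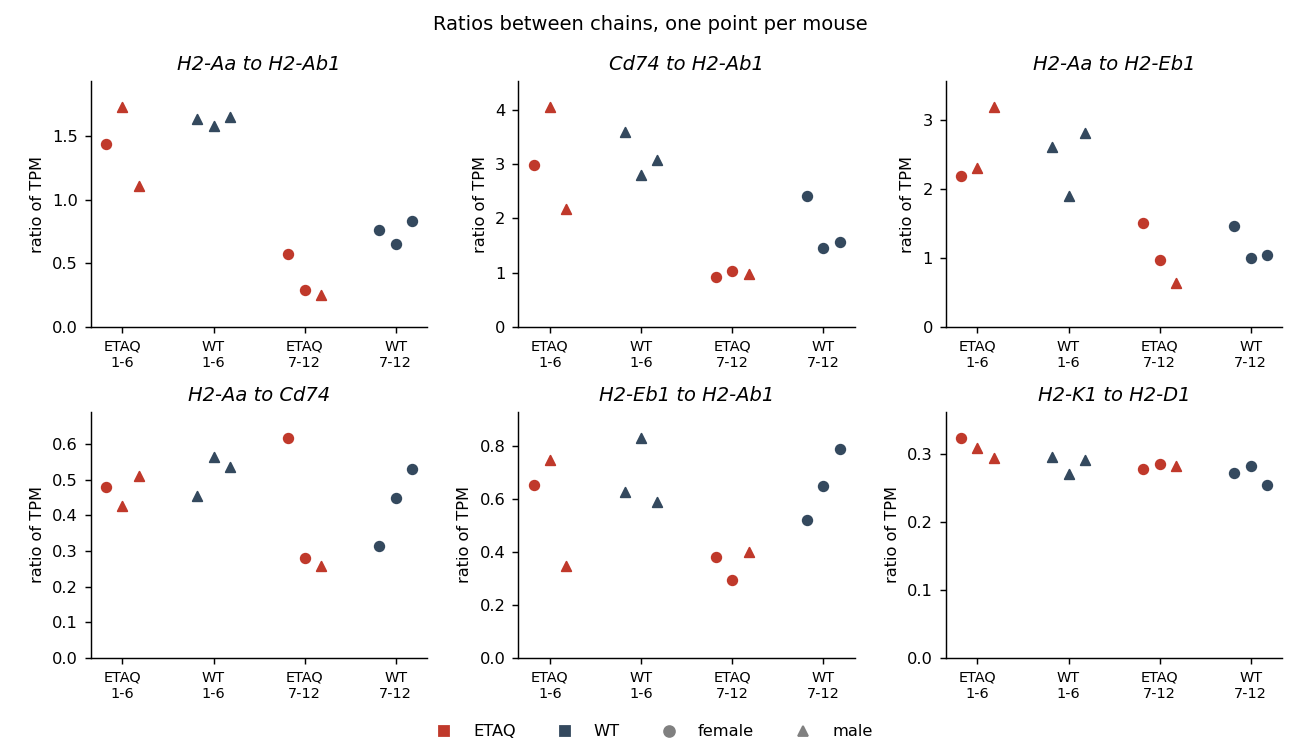
Ratios of TPM between chains (vertical axes, each from 0) in ETAQ and WT mice of numbers 1 to 6 and 7 to 12, with 1 point per mouse, circles for females and triangles for males. H2-Aa lies above H2-Ab1 in all of mice 1 to 6 (ratios from 1.11) and below it in all of mice 7 to 12 (ratios to 0.829), where the ETAQ points are the lowest.

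Over 5 lists of other genes of the pathway, 11 of 71 tested were called for mouse number (15.5%), 10 higher and 1 lower in mice 1 to 6, against 7.89% of all genes. Of 20 further class I heavy chain genes, 16 were tested and 4 were called, all higher in mice 1 to 6. The nonclassical chain H2-T23 (Qa-1, a ligand of NK cell receptors) had 10.2 to 16.3 TPM in mice 1 to 6 against 9.35 to 11.3 TPM in mice 7 to 12, a log2 fold change of 0.50 ± 0.11 (SE; edgeR adjusted p = 0.00925). H2-T24 had a log2 fold change of 0.63 (edgeR adjusted p = 0.0143), H2-Q6 one of 0.77 (edgeR adjusted p = 0.0396) and H2-Q1 one of 2.14 ± 0.57 (SE; edgeR adjusted p = 0.0316). H2-Q1 rests on 83 expected counts in all of mice 1 to 6 against 23 in mice 7 to 12, and H2-Q1 and H2-Q6 share 10.9% and 17.9% of their 75-base stretches with other genes. Summed over all 22 class I heavy chain genes listed, H2-K1 and H2-D1 included, the level was 209 to 247 TPM in mice 1 to 6 against 173 to 215 TPM in mice 7 to 12. The median log2 fold change of the 16 tested genes beyond the members was 0.20, against 0.00448 over all genes.

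The smaller counts of the next lists stand against the same 7.89% of all genes. For class I loading, 1 of 12 genes was called, Psmb8, a subunit of the immunoproteasome, at 4.67 to 7.43 TPM in mice 1 to 6 against 3.73 to 5.48 TPM in mice 7 to 12 (log2 fold change 0.73 ± 0.16 SE; edgeR adjusted p = 0.0107). Of 9 tested genes for class II accessory chains and processing, 2 were higher and 1 lower. Ifi30, the lysosomal thiol reductase that opens antigens, had a log2 fold change of 0.88 ± 0.19 (SE; edgeR adjusted p = 0.0115). H2-DMb1, a chain of the peptide exchanger of class II, had one of 0.80 ± 0.23 (SE; edgeR adjusted p = 0.0445) and shares 15.8% of its 75-base stretches with H2-DMb2. March1, a ubiquitin ligase that takes class II off the cell surface, was lower in mice 1 to 6 with a log2 fold change of -0.29 ± 0.07 (SE; edgeR adjusted p = 0.0152). Among the 7 genes of the complex that binds class II promoters, Nfya was called at 0.22 ± 0.06 (log2 fold change and SE; edgeR adjusted p = 0.0318). Among 27 tested interferon genes, Rsad2, an antiviral enzyme induced by interferon, had a log2 fold change of 2.11 ± 0.17 (SE; edgeR adjusted p = 1.62e-06) and Irf8, a factor of myeloid cells, one of 0.59 ± 0.14 (SE; edgeR adjusted p = 0.0154), and the other 25 were not called.

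By genotype, the same lists held 1 called gene of 71 tested (1.41%), against 1.92% of all genes. Jak1, a kinase that relays interferon and cytokine signals, stood at 194 ± 8.82 normalised CPM in ETAQ mice and 217 ± 7.71 normalised CPM in WT mice (SD, n = 6 each), a log2 fold change of -0.16 ± 0.03 (SE; edgeR adjusted p = 0.0155). None of the 16 class I heavy chain, 12 loading, 9 accessory and 7 promoter complex genes tested was called in edgeR, with 1, 0, 1 and 1 of them at an unadjusted p under 0.05. The 27 interferon genes, Jak1 among them, held 3 at that threshold, which makes 6 of the 71 (8.45%) against 10.9% of all genes. The median log2 fold changes of the 5 lists were 0.08, 0.01, -0.02, -0.02 and, for the interferon genes, 0.0029, against 0.00428 over all genes.

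Markers of B cells, of border-associated macrophages and of tissue outside the cord moved with mouse number beside the class II genes. Of the 8 tested B cell markers, 7 were higher in mice 1 to 6, with Cd79a at 1.66 to 4 TPM against 0.1 to 0.25 TPM in mice 7 to 12. Ebf1, at 19.5 to 31.0 TPM in all mice, was lower in mice 1 to 6. With it the B cell markers summed to 29.7 to 40.7 TPM in mice 1 to 6 against 28.2 to 32.5 TPM in mice 7 to 12, which overlapped. Without it they summed to 7.94 to 17.6 TPM against 0.920 to 1.68 TPM in mice 7 to 12. The pre-B cell gene Igll1 was at 0 in 4 of the 6 libraries of mice 7 to 12. Of the 9 markers of border-associated macrophages, which lie in the meninges and around vessels, 7 were higher in mice 1 to 6. The 9 summed to 13.3 to 24.8 TPM against 5.64 to 8.07 TPM in mice 7 to 12. Of that sum, Pf4 alone held 3.88 to 10.2 TPM in mice 1 to 6 against 0.18 to 0.98 TPM in mice 7 to 12. Of the 6 dendritic cell markers tested, 1 (Clec10a) was higher, and the list summed to 19.8 to 26.4 TPM against 20.04 to 21.8 TPM in mice 7 to 12. Without Flt3 and Zbtb46, left out after the values were seen because they carry most of it, that sum was 2.16 to 4.69 TPM (mean 3.48) in mice 1 to 6 against 1.78 to 2.54 TPM (mean 2.25) in mice 7 to 12. The 10 microglia markers were not called in edgeR, 0 of them at an unadjusted p under 0.05, with sums of 218 to 277 TPM in mice 1 to 6 against 228 to 273 TPM in mice 7 to 12.

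**Figure D4:**
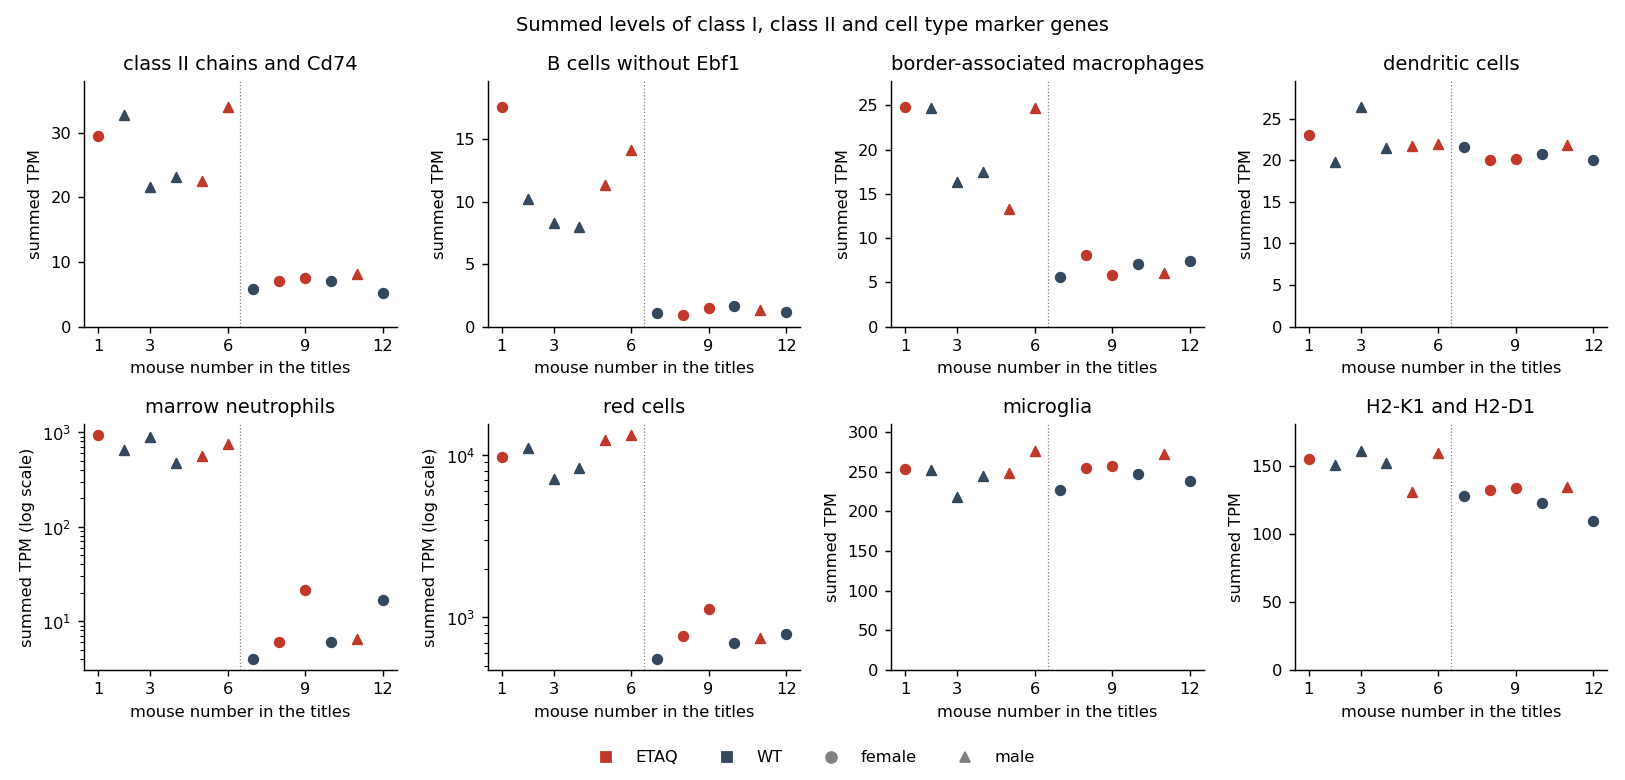
Summed TPM (vertical axes, on a log scale for marrow neutrophils and red cells and from 0 for the rest) by mouse number, with ETAQ mice in red, WT mice in dark blue, circles for females and triangles for males. Class II genes, B cell markers without Ebf1 and border-associated macrophage markers all lie higher left of the dotted line than right of it. Class II lies at 21.5 TPM or more in mice 1 to 6 and at 8.08 TPM or less in mice 7 to 12. The microglia points overlap across the line.

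Marrow neutrophil markers were all called, 11 of 11 higher, with sums of 467 to 926 TPM in mice 1 to 6 against 4.02 to 21.5 TPM in mice 7 to 12. Elane and Retnlg were at or near 0 in the later mice, at most 0.0900 and 0.310 TPM. Red cell markers were higher for 7 of 7, at 7076 to 13184 TPM against 558 to 1129 TPM, skeletal muscle markers for 8 of 9, fibroblast and meninges markers for 7 of 9 and endothelial markers for 3 of 10. Of the neuron markers, 0 were higher and 3 of 11 lower, and of the glia markers 1 of 10 was higher. In T and NK cells 1 marker of 11 had counts enough to be tested and it was not called. What these cells contribute to the class II and class I values was not tested, and a difference in the tissue taken and a difference in the cord itself cannot be told apart.

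By genotype, 0 of the 8 tested B cell markers were called in edgeR, 0 of them at an unadjusted p under 0.05. Within mice 1 to 6, the B cell sum without Ebf1 came to 11.3 to 17.6 TPM in ETAQ mice 1, 5 and 6. It came to 7.94 to 10.2 TPM in WT mice 2, 3 and 4, which did not overlap. Of single genes, 15.5% were separate there in normalised CPM, a share that does not carry over to a sum in TPM. The class II sum was 22.5 to 33.9 TPM in the same ETAQ mice against 21.5 to 32.8 TPM in the WT mice, which overlapped almost wholly. Macrophage markers of the borders summed to 24.8, 13.3 and 24.7 TPM in ETAQ mice 1, 5 and 6 against 24.6, 16.3 and 17.5 TPM in WT mice 2, 3 and 4.

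Genes were ranked by how closely they followed a member in both number groups, by the lower of the Pearson correlations within mice 1 to 6 and within mice 7 to 12 (n = 6 each, log2 normalised CPM, 14851 genes). These are descriptions, and the points share library depth and tissue makeup. H2-K1 was followed most closely by Mov10 (lower r = 0.955), Tnfsf10 (0.939) and Pdcd2l (0.938), and 70 genes had a lower r of at least 0.8. B2m was followed by the matrix genes Col5a2 (0.911) and Dcn (0.884) and by Eps8l2 (0.881). Tap1 was followed by Tmem53 (0.909), Unc93b1 (0.899) and Osbpl3 (0.883), Cd74 by Cib1 (0.902), Ushbp1 (0.887) and Pdzrn3 (0.881), and H2-Aa by Cp (0.900) and Kitl (0.859). Among the members, Cd74 and Tap1 went together in both number groups, with r = 0.896 in mice 1 to 6 and 0.907 in mice 7 to 12. Cd74 and H2-Aa did so in mice 1 to 6 alone, with r = 0.916 there and -0.621 in mice 7 to 12, where H2-Aa rests on 10 to 21 expected counts per library.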

How the data were processed

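Whole spinal cord RNA of 12 mice, 1 library each, was measured by polyA-selected RNA sequencing of paired 75-base reads, per the labels' protocols. The submitters' processing notes name Bowtie2 2.2.0 and RSEM 1.2.12. The genome build, annotation and strand setting are not given in the sources used here, and the protocol names 2 library kits without saying which library had which. Per the file headers, each deposited table lists an unscaled expected count for every gene, and 15.4% of these are not whole. Per the file headers it also lists TPM, scaled by the authors for gene length and depth. The deposited FPKM values were not used.

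Expected counts were rounded and fitted in R 4.3.3 with edgeR 4.0.16 (robust quasi-likelihood, filterByExpr on genotype by sex, TMM factors 0.975 to 1.02, 17189 genes). Genotype was fitted with sex as a covariate, mouse number (1 to 6 over 7 to 12) with sex and genotype, and genotype within each of these number groups and the interaction from 1 fit of all 12 mice with sex. Tests are two-sided with Benjamini-Hochberg adjustment over all genes and a threshold of 0.05. SE was obtained as the size of the log2 fold change over the root of its F statistic. Log2 normalised CPM carries a prior count of 2. Ratios were tested by exact permutation over mice, without covariates. Alternatives used DESeq2 1.42.0, limma 3.58.1 (voom, and log2 TPM with a pseudocount of 1 or 0.1), other scalings, filters and covariates, and the omission of each mouse. The fits were tested on simulated counts with known changes. Those simulated for genotype held no difference by mouse number, so they cannot show how that test performs on these data.

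A count of 0 allows up to 3 counts, 0.0724 to 0.127 CPM by library, which covers counting error only since no molecular identifiers were used. Nothing says that mice came from separate litters, so p-values measure the spread between these mice.

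The 10 genes, the pathway and marker lists and the tests were chosen with earlier results of these data known. Named are the 10 members, called genes of each pathway list (up to 4 per comparison by smallest p), the 3 genes most like each of 5 members among genes with a mean of at least 1 normalised CPM, and up to 3 markers per list, apart from items that are not reported here. Clec10a, Ebf1, Igll1, Pf4 and Retnlg and the sums without Ebf1 or without Flt3 and Zbtb46 were chosen after their values were seen. H2-Ke6, which is not a class I chain, was taken out of that list. Of the listed genes, H2-Ea, Marchf1 and Ahsp matched no row. Gene positions and shared 75-base stretches came from GENCODE M21 (GRCm38) and promoters from RefSeq (GRCm38.p6), and describe these references only.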

Additional observations from a re-analysis of the deposited data

Results flagged for a closer look

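WT mouse 12 stood apart from the other mice 7 to 12 for H2-K1, the class I heavy chain, at 17.97 normalised CPM, with the next mouse at 21.9 and the highest at 23.1 normalised CPM. Its distance to the next mouse took 0.768 of the whole range of these 6 mice, against a critical share of 0.625. The same mouse had the lowest TPM of mice 7 to 12 for H2-K1, H2-D1, B2m, Tap1, Tap2, Cd74, H2-Ab1 and Ciita. In all, 40 groups of 6 mice were examined, of which chance would be likely to single out about 1 in 20.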

How the results depend on the processing

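No paired analysis was possible because each mouse has its own number. Cd74 and H2-Aa were called for mouse number under every alternative run. The 8 members called became 3 with limma on TPM at either pseudocount (Cd74, H2-Aa and H2-Eb1) and ranged from 2 to 8 when 1 mouse was left out, lowest without mouse 1 and next without mouse 11, where by construction sex and mouse number are told apart by fewer mice. Genes called for mouse number were 574 and 600 with limma on TPM + 1 and TPM + 0.1, 3533 with genotype as the only covariate, and 163 to 1563 with 1 mouse left out (163 without mouse 1, 284 without mouse 11). Genes called for genotype were 506 with DESeq2 and 151 and 152 with limma on the same TPM scales, 236 to 315 with 1 mouse left out, and 0 members under any alternative. The interaction was called for 3 genes with DESeq2 and for 0 to 3 with 1 mouse left out. The genotype log2 fold change turned sign for Cd74 (-0.24), H2-Aa (-0.54) and H2-Eb1 (-0.11) with limma-voom. It did so for H2-D1 (0.026 and 0.027) and H2-Aa (-0.00081 and -0.027) with limma on TPM. Without covariates it did so for H2-Aa (-0.0100) and H2-Eb1 (-0.028), and with sex and mouse number for H2-Aa (-0.071), H2-Eb1 (-0.014) and Ciita (-0.032). With each number group fitted alone without sex, H2-Aa (0.020) and Ciita (0.052) turned in mice 1 to 6 and Ciita (-0.028) in mice 7 to 12. With 1 mouse left out, the genotype effect ranged from -0.098 to 0.0068 for B2m, -0.25 to 0.70 for Cd74, -0.22 to 0.22 for Ciita, -0.35 to 0.73 for H2-Aa, -0.090 to 0.0073 for H2-D1 and -0.34 to 0.32 for H2-Eb1. The interaction ranged from -0.060 to 0.069 for B2m, -0.090 to 0.42 for Cd74, -0.31 to 0.53 for H2-Aa, -0.31 to 0.12 for H2-Eb1, -0.075 to 0.30 for Tap1 and -0.12 to 0.047 for Tap2. The mouse number effect on Tap1 ranged from -0.067 to 0.27. The cause of these changes was not tested. The mouse number difference in the H2-Aa to H2-Ab1 ratio ranged from 1.38 to 1.76 with 1 mouse left out, an alternative added after seeing the data. Depth limits Ciita, H2-Eb1 and H2-Aa, with about 10 expected counts in the lowest libraries.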
